A study of Mus musculus with 4 samples.

Results

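The 10 genes described here, Slc1a3, Acss3, Fam13a, Celf2, Chpt1, Trhde, Tshr, Sgcd, Prr16 and St6galnac5, were chosen because their RNA was high in adipocyte nuclei that the authors labelled Ad Ia, in thymus and in epigonadal fat alike. All 10 were found by symbol among the 32285 genes of the count tables. The nuclei came from the buoyant, fat-rich fraction of digested tissue of wild-type, naive C57/BL6 mice on a standard chow diet. One 4-month male thymic RNA library was made from 6 pooled thymi, and 1 epigonadal white adipose RNA library is labelled as 4-month male (how many mice it holds was not given in the sources used here). A multiome of 6-month female mice, with 16 pooled thymi, gave the chromatin data. Each group was thus 1 library, so no replicate test was possible, and the 95% intervals given throughout cover counting error only.

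The authors' labels put 365 thymic and 1564 epigonadal nuclei into 5 groups, 2 named Ad I (a and b) and 3 named Ad II (a, b and c), with both depots clustered together. Ad Ia held 35 thymic and 106 epigonadal nuclei, and Ad Ib, a subcluster of the same joint cluster, held 49 and 152. Since these labels rest on the RNA of the same nuclei, and the genes were picked for their level in Ad Ia, every comparison between labels below is a description and supports nothing by itself. The ratios between depots use the same Ad Ia levels, so they too are a description.

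Several of these genes sit in processes that white adipocytes are known for. The thyrotropin receptor, encoded by Tshr, signals through cyclic AMP, which drives lipolysis in fat cells, and Trhde encodes a membrane peptidase that inactivates thyrotropin-releasing hormone. Slc1a3 encodes a sodium-coupled glutamate and aspartate transporter, Acss3 a mitochondrial acyl-CoA synthetase acting on short-chain acids such as propionate, and Chpt1 the enzyme of the last step of phosphatidylcholine synthesis. Fam13a, a gene with a GTPase-activating domain, lies at a locus tied to body fat distribution in people. Celf2 encodes an RNA-binding splicing regulator, Sgcd the delta-sarcoglycan of the dystrophin-associated complex, Prr16 a regulator of cell size and translation, and St6galnac5 a sialyltransferase of ganglioside synthesis.

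The label was checked against fixed markers. In thymic Ad Ia nuclei 11 of 12 adipocyte markers had a UMI (a unique molecular identifier, 1 counted RNA molecule), with a summed level of 13630 CPM (UMIs per 1000000 nuclear-encoded UMIs) and Lep at 0. All 12 were seen in epigonadal Ad Ia, at 15947 CPM. Thymic Ad Ia held 1 of 8 endothelial markers (36.2 CPM) and 0 of 7 macrophage markers, whereas epigonadal Ad Ia held 8 of 8 (731 CPM) and 6 of 7 (404 CPM). Fibroblast markers summed to 145 and 432 CPM with Pdgfra at 0 in both, T cell markers to 217 and 20.9 CPM, and B cell markers to 3435 and 4561 CPM. In thymus Cd79a, Cd79b, Pax5 and Bank1 were at 0, so only Ms4a1 and Ebf1 made up that B cell sum. In thymic Ad IIb Ebf1 alone gave 4737 CPM, so these sums are not read as B cell RNA. The part of the RNA of these other lists in the depot differences was not tested. The Ad IIa nuclei of both libraries carried endothelial markers, at 11297 CPM in thymus and 8245 CPM in epigonadal fat, beside adipocyte markers at 3106 and 13178 CPM. Most of the thymic adipocyte sum was Pparg, at 2371 CPM. Car3 came next at 321 CPM, while Adipoq and Plin1 were at 9.96 CPM each and Lep at 0. Ad IIc differed between libraries: its endothelial sum was 10191 CPM in thymus and 469 CPM in epigonadal fat, with adipocyte sums of 3059 and 54838 CPM. The same label name therefore covered nuclei of different marker content, and a ratio between the libraries within Ad IIc sets unlike nuclei against each other.

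Depth set the precision. The median Ad Ia nucleus held 491 nuclear-encoded UMIs in thymus, where 18 of 35 nuclei were under 500, and 1031 in epigonadal fat. For Ad Ib the medians were 363 and 638. The summed counts behind the levels were 27659 UMIs for thymic and 143596 for epigonadal Ad Ia. Mitochondrial RNA made up a median of 15.5% and 3.83% of the UMIs, and the nuclear RNAs Malat1, Neat1 and Meg3 summed to 73213 and 44681 CPM. Of all barcodes, 147 occurred in both RNA libraries. None was labelled in both. Of the epigonadal Ad Ia barcodes 3 were also thymic barcodes, and no thymic Ad Ia barcode was shared. Without shared barcodes the depot ratio of Ad Ia was -1.48 for Slc1a3, 1.09 for Acss3 and 1.31 for Chpt1 on the log2 scale, against -1.46, 1.07 and 1.30 with them.

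Among the 6 genes with a listed start, the upstream sequences of the 4 whose start windows held the most adipocyte fragments are shown. The chromatin ratios below do not use these sequences. Each is the 250 bases before the start, 5′ to 3′, from RefSeq on GRCm38.p6, minus strand; capitals mark matches to the motifs listed after them.
Chpt1, chr10:88503971-88504220: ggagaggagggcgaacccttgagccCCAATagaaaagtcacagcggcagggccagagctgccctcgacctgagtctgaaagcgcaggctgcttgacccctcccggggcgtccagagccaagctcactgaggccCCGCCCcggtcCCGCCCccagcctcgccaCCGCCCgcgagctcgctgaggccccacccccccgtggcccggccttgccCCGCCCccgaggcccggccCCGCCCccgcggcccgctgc
Celf2, the start at 6872035, chr2:6872036-6872285: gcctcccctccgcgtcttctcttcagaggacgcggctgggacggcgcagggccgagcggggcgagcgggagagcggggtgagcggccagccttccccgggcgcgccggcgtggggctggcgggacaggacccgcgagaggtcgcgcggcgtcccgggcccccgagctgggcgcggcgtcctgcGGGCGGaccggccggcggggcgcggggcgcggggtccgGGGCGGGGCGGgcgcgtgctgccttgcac
Fam13a, chr6:59024503-59024752: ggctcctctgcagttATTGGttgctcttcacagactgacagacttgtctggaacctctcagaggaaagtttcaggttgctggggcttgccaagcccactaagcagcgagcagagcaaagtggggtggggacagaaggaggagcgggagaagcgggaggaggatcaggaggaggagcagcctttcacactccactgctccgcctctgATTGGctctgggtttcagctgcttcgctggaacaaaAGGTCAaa
Slc1a3, chr15:8710808-8711057: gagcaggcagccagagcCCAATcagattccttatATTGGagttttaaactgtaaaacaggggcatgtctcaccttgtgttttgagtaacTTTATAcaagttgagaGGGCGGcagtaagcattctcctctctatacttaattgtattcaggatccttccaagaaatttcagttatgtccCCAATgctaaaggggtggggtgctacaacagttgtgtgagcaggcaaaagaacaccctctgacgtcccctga
The sequences differed in CpG content. The Chpt1 window held 23 CpG pairs and that Celf2 window 43, more than in 86.7% and 99.3% of the 32851 mouse promoter windows of that table. Fam13a had 5 and Slc1a3 had 2, near or under the median of 6.

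The motifs searched, on both strands, were the GC box GGGCGG, held by 32.7% of all windows of this length, the CCAAT box CCAAT (33.8%), the TATA box TATAAA (12.4%), the E-box CACGTG (6.02%), the nuclear receptor element AGGTCA (14.0%), C/EBP as TTGCNNAA (9.56%) and the cyclic AMP response element TGACGTCA (1.55%). Longer forms were searched as well, namely the PPAR/RXR direct repeat of the nuclear receptor element (0.0335%), which contains AGGTCA, the glucocorticoid receptor palindrome (0.387%) and the NF1 palindrome (0.0365%). Chpt1 held 5 GC boxes, between 20 and 117 bases before its start, and 1 CCAAT box. The printed Celf2 window held 3 GC boxes, 2 of which overlap. Fam13a had AGGTCA 8 bases before its start and CCAAT boxes at 44 and 235 bases, and Slc1a3 had 3 CCAAT boxes, a TATA box and a GC box. Over the 10 starts that the table lists for 6 of these genes, 0 windows held the C/EBP, cyclic AMP, direct repeat, glucocorticoid or NF1 letters, 5 held a GC box, 3 a CCAAT box, 2 a TATA box, 2 AGGTCA and 1 an E-box. A match is a run of letters, not a shown site. Acss3, Tshr, Prr16 and St6galnac5 have no sequence shown.

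**Figure D1:**
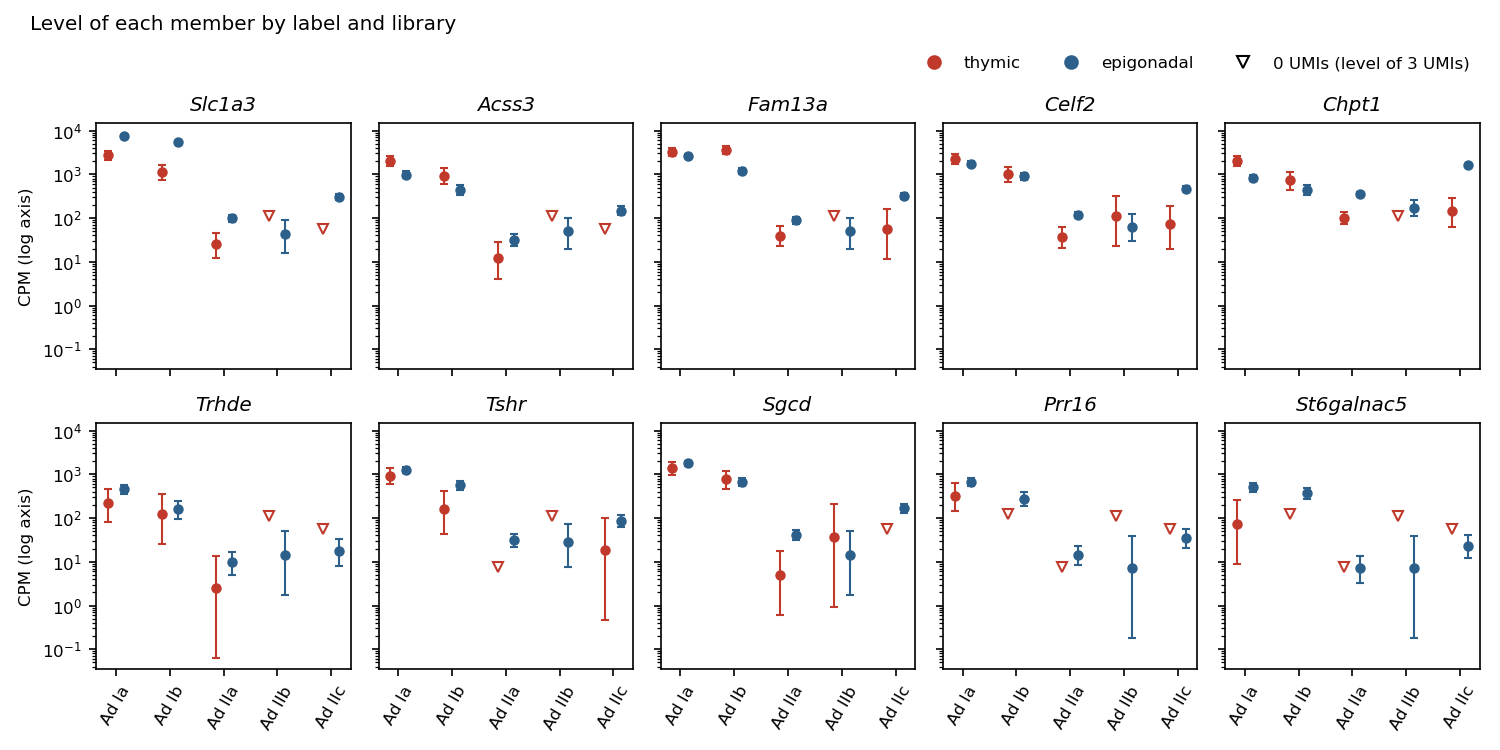
Level of each of the 10 genes in CPM (log axis) by label, in the thymic (red) and epigonadal (blue) library; bars are exact Poisson 95% intervals of 1 summed count and open triangles mark the level of 3 UMIs where none was seen. Ad Ia and Ad Ib hold the high values for most genes, Fam13a is level between them in thymus, and Chpt1 peaks in epigonadal Ad IIc at 1596 CPM.

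Among the hormone and signalling genes, Tshr was concentrated in Ad Ia. Its level was 940 CPM (26 UMIs, 614 to 1377) in thymic Ad Ia, 163 CPM in Ad Ib, 18.4 CPM in Ad IIc and 0 UMIs in Ad IIa and Ad IIb. In epigonadal fat Tshr stood at 1247 CPM (179 UMIs, 1071 to 1443) for Ad Ia, 565 for Ad Ib, 87.2 in Ad IIc, 30.7 in Ad IIa and 28.4 in Ad IIb. The step from Ad Ia to Ad Ib exceeded counting error in both libraries. A Tshr UMI was present in 42.9% of thymic and 67.9% of epigonadal Ad Ia nuclei, against 0.647% of unlabelled thymic barcodes with T cell markers (median 790.5 UMIs). A single nucleus held 34.6% of the thymic Tshr UMIs in Ad Ia.

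Trhde was sparse. It had 6 UMIs in thymic Ad Ia (217 CPM, 79.6 to 472), 3 in Ad Ib (122 CPM), 1 in Ad IIa and 0 in Ad IIb and Ad IIc. Epigonadal levels were 453 CPM (65 UMIs, 349 to 577) in Ad Ia, then 158 in Ad Ib and 9.70 to 17.4 CPM in the Ad II labels. Thymic Ad Ia and Ad Ib did not differ beyond counting error, and 1 nucleus gave 3 of the 6 thymic UMIs.

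Fam13a did not separate the Ad I subclusters in thymus. It was at 3218 CPM (89 UMIs, 2584 to 3960) in thymic Ad Ia and 3621 CPM (89 UMIs, 2908 to 4455) in Ad Ib, a log2 difference of -0.17 (-0.61 to 0.27). The other thymic labels held 55.3 CPM or less. In epigonadal fat Fam13a was at 2681 CPM (385 UMIs, 2420 to 2963) in Ad Ia, then 1189 in Ad Ib, 324 in Ad IIc, 88.1 in Ad IIa and 49.7 in Ad IIb, and Ad Ia and Ad Ib differed by 1.17 on the log2 scale (0.89 to 1.46).

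Of the transport and metabolic genes, Slc1a3 had its highest level in epigonadal Ad Ia. It stood there at 7619 CPM (1094 UMIs, 7174 to 8084) and at 5455 CPM (656 UMIs) in Ad Ib, against 302 in Ad IIc, 100 in Ad IIa and 42.6 in Ad IIb. Thymic levels were 2748 CPM (76 UMIs, 2165 to 3439) in Ad Ia, then 1139 in Ad Ib and 24.9 in Ad IIa, with 0 UMIs in the other Ad II labels. Of epigonadal Ad Ia nuclei 97.2% held a UMI and of Ad Ib nuclei 90.1%, so the gene marked both Ad I labels there, with an Ad Ia excess of 0.48 on the log2 scale (0.34 to 0.62). In thymus 1 nucleus gave 28 of the 76 Ad Ia UMIs.

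Acss3 was at 2061 CPM (57 UMIs, 1561 to 2670) in thymic Ad Ia, then 936 in Ad Ib and 12.5 in Ad IIa, with 0 UMIs in Ad IIb and Ad IIc. The epigonadal levels were 989 CPM (142 UMIs, 833 to 1166) in Ad Ia, then 441 in Ad Ib, 147 in Ad IIc, 49.7 in Ad IIb and 32.3 in Ad IIa. Ad Ia was above Ad Ib by 1.12 (0.42 to 1.91) in thymus and 1.16 (0.70 to 1.65) in epigonadal fat on the log2 scale.

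Chpt1 had another pattern. In thymus it followed the others, with 2025 CPM (56 UMIs, 1529 to 2629) in Ad Ia, then 732 in Ad Ib, 147 in Ad IIc, 102 in Ad IIa and 0 UMIs in Ad IIb. In epigonadal fat the highest label was Ad IIc at 1596 CPM (824 UMIs), and Ad Ia came next at 829 CPM (119 UMIs, 687 to 992), before Ad Ib at 441, Ad IIa at 353 and Ad IIb at 171. A Chpt1 UMI was seen in 67.6% of epigonadal Ad IIc nuclei and in 50.9% of Ad Ia nuclei, and the Ad IIc nuclei carried the largest adipocyte marker sum and only 1829 CPM of Malat1, Neat1 and Meg3. The part of those differences in the Chpt1 level was not tested.

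The remaining genes serve RNA processing, membrane structure, growth and glycolipid synthesis. Celf2 was at 2242 CPM (62 UMIs, 1719 to 2874) in thymic and 1748 CPM (251 UMIs, 1538 to 1978) in epigonadal Ad Ia, with Ad Ib at 1017 and 898 CPM and the Ad II labels at 37.4 to 111 and 63.9 to 465 CPM. In thymus 1 nucleus gave 29.0% of its Ad Ia UMIs. Sgcd was at 1374 CPM (38 UMIs, 972 to 1886) and 1790 CPM (257 UMIs, 1578 to 2022) in Ad Ia, and at 773 and 665 CPM in Ad Ib, where only the epigonadal step exceeded counting error.

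Prr16 and St6galnac5 had few UMIs in the labelled thymic nuclei. Prr16 had 9 UMIs in thymic Ad Ia (325 CPM, 149 to 618) in 8 nuclei and 0 in all 330 other labelled nuclei, which makes Ad Ia at least 55.0-fold higher when the others are set at 3 UMIs in all (the lower log2 limit, with the counting error of the 9 UMIs, was 5.18). In epigonadal fat it was at 676 CPM (97 UMIs, 548 to 824) in Ad Ia, then 274 in Ad Ib and 7.11 to 34.9 in the Ad II labels. St6galnac5 had 2 UMIs in thymic Ad Ia (72.3 CPM, 8.76 to 261) and 0 in the other thymic labels, where a count of 0 in Ad Ib allows up to 122 CPM. Its epigonadal levels were 515 CPM (74 UMIs, 405 to 647) in Ad Ia and 366 CPM (44 UMIs) in Ad Ib, which did not differ beyond counting error, and 7.11 to 23.2 CPM in the Ad II labels.

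Ad Ia thus had the highest level of the 5 labels for 9 of the 10 genes in thymus, Fam13a being the exception, and for 9 of 10 in epigonadal fat, where Chpt1 was the exception. Ad Ia was not separated from Ad Ib beyond counting error for Trhde, Sgcd and St6galnac5 in thymus and for St6galnac5 in epigonadal fat. Among all genes with at least 10 UMIs in labelled nuclei the share was 18.0% in thymus and 21.9% in epigonadal fat, from which nothing is read, since the genes were chosen on this and Prr16 and St6galnac5 were under that minimum in thymus. Against the remaining labels together, 8 genes had 10 UMIs or more in thymus and all 8 were at least 2-fold higher in Ad Ia (25.0% of 6630 genes), with Tshr at 6.47 and Fam13a at 3.92 on the log2 scale as the extremes. In epigonadal fat all 10 had 10 UMIs and 9 were at least 2-fold higher (22.4% of 10893 genes), from Trhde at 4.43 to Celf2 at 2.81, while Chpt1 stood at 0.32 (0.04 to 0.59). Against Ad Ib alone, 5 of the 7 thymic genes with 10 UMIs were at least 2-fold higher in Ad Ia (15.4% of 1022 genes) and 0 lower (13.6%), and in epigonadal fat 6 of 10 were higher (9.97% of 4763 genes) and 0 lower (9.38%). Just outside that fold lay Celf2 at 0.96 and Chpt1 at 0.90 in epigonadal fat, and just inside it Acss3 at 1.12 in thymus.

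**Figure D2:**
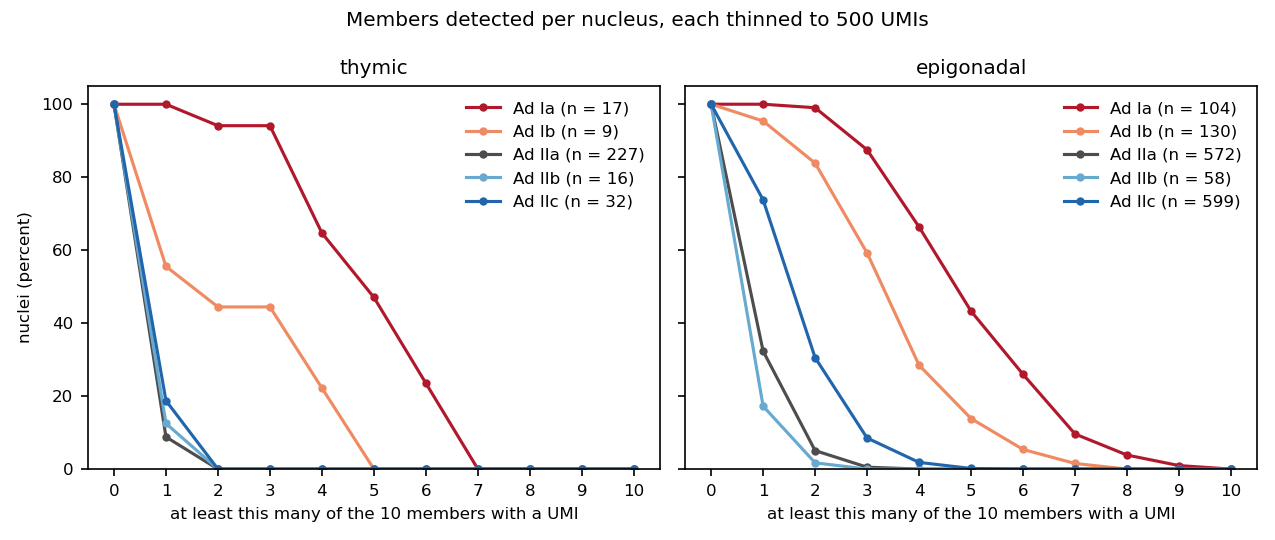
Share of nuclei (percent, y axis) with at least a given number of the 10 genes detected (x axis), each nucleus thinned to 500 UMIs, by label, for the thymic (left) and epigonadal (right) library. Ad Ia lies above all other labels in both libraries, and the thymic curves of Ad Ia and Ad Ib rest on 17 and 9 nuclei.

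The number of the 10 genes with a UMI was counted in each nucleus. Since the genes were chosen for their level in Ad Ia, a high number there follows from that choice. Whether they occur together in a nucleus beyond their single shares was not tested. With each nucleus thinned to 500 UMIs, 3 or more of the 10 genes had a UMI in 16 of 17 thymic Ad Ia nuclei (94.1%, exact interval 71.3 to 99.9%) and in 91 of 104 epigonadal ones (87.5%, 79.6 to 93.2%). In Ad Ib the shares were 4 of 9 (44.4%, 13.7 to 78.8%) and 77 of 130 (59.2%, 50.3 to 67.8%). The Ad IIa share was 0 of 227 in thymus (exact upper limit 1.61%) and 3 of 572 in epigonadal fat, and epigonadal Ad IIc stood at 51 of 599 (8.51%). Thinning left out 18 of 35 thymic Ad Ia and 40 of 49 Ad Ib nuclei, but 2 of 106 and 22 of 152 epigonadal ones. Unthinned, the share with 3 or more was 97.1% and 49.0% in thymic Ad Ia and Ad Ib, and 98.1% and 76.3% in the epigonadal library. The median number of genes per Ad Ia nucleus after thinning was 4 in each library, with a maximum of 6 in thymus and 9 in epigonadal fat.

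**Figure D3:**
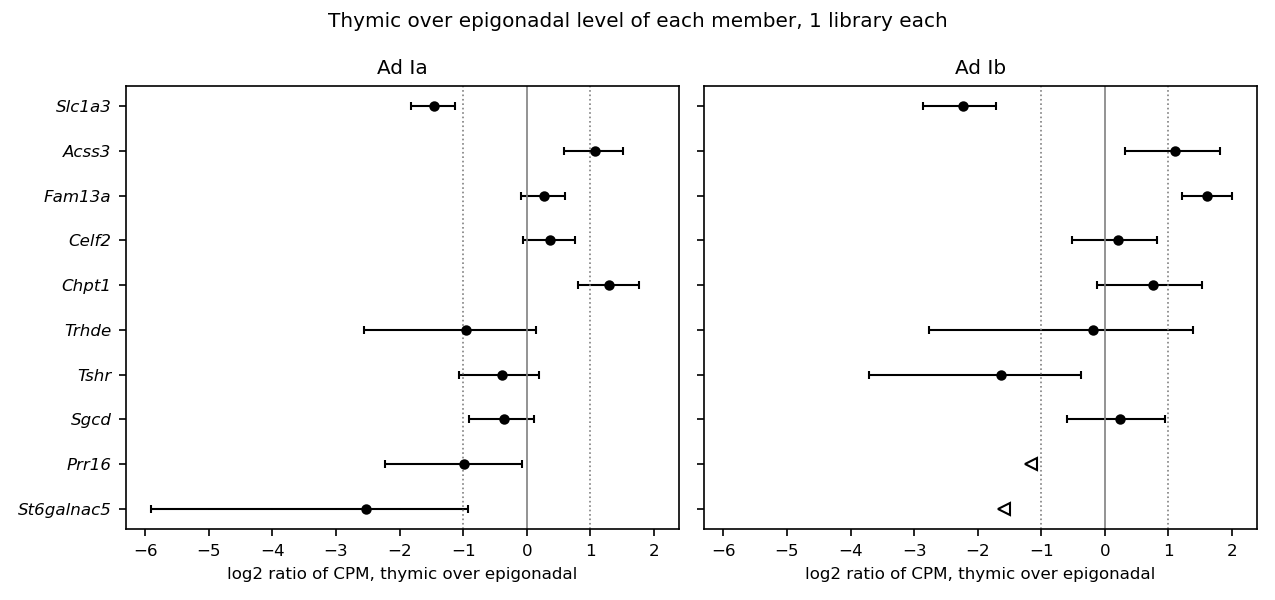
Log2 ratio of CPM, thymic over epigonadal, for each gene in Ad Ia (left) and Ad Ib (right), 1 library each; bars are exact 95% counting intervals, dotted lines mark 2-fold, and open arrows mark bounds where thymus had 0 UMIs. Slc1a3 lies below 0 and Acss3 above 0 in both panels, while Fam13a moves from 0.27 to 1.61.

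Between depots, some of these genes had higher Ad Ia levels in thymus and others in epigonadal fat. Chpt1 was 2.45-fold higher in thymic than in epigonadal Ad Ia (log2 1.30, 0.80 to 1.76) and Acss3 was 2.09-fold higher (1.07, 0.59 to 1.51). Slc1a3 was lower in thymus by a log2 of -1.46 (-1.83 to -1.14). St6galnac5 stood at -2.52 (-5.91 to -0.93) on 2 thymic against 74 epigonadal UMIs. It passed the minimum through the epigonadal side, so its direction is not read. The 2 of 10 higher and 2 of 10 lower genes, St6galnac5 being 1 of the lower, stand beside 16.4% and 18.3% of 3339 genes, shares close to the background. Just outside the fold lay Prr16 at -0.98 (-2.23 to -0.07) and Trhde at -0.96 (-2.56 to 0.14). Tshr (-0.38), Sgcd (-0.37), Fam13a (0.27) and Celf2 (0.37) had intervals that included 0. The median of the 10 was -0.37 and that of all genes was 0.05. The medians of the 10 genes' lower and upper limits were -0.99 and 0.16, which are not an interval of that median.

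Scaling changed the counts. With edgeR's TMM factors the median of all genes moved by -0.47, and 0 genes were at least 2-fold higher and 4 lower (5.69% and 28.8% of all genes); with median-of-ratios factors the shift was -0.15, with 1 higher and 4 lower (12.8% and 21.0%). Fam13a and Celf2 changed sign under TMM, at -0.20 and -0.11. Without the Ad Ia nucleus that held most UMIs of these genes in each library, Slc1a3 was at -1.80, Chpt1 at 1.29 and Acss3 at 1.16.

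In Ad Ib, Slc1a3 was again lower in thymus, at -2.24 (-2.86 to -1.71), and Acss3 again higher, at 1.10 (0.31 to 1.82). Fam13a was 3.05-fold higher in thymic Ad Ib (1.61, 1.21 to 2.0), and Chpt1 stood at 0.76 (-0.13 to 1.53). These Ad Ib ratios are given without TMM factors. The factors were 1.487 for thymic and 0.924 for epigonadal Ad Ib, further apart than those of Ad Ia, and would lower every ratio here. The Acss3 and Fam13a values thus depend on the scaling. With TMM factors both would fall under 2-fold, and the Acss3 interval would include 0. Tshr stood at -1.64 (-3.71 to -0.37) on 4 thymic against 68 epigonadal UMIs, so its direction is not read. Prr16 and St6galnac5 had 0 thymic Ad Ib UMIs, which makes epigonadal Ad Ib at least 2.25-fold and 3.0-fold higher at a floor of 3 UMIs; with the counting error of the 33 and 44 epigonadal UMIs, the upper limits of the log2 ratio were -0.79 and -1.22. In all, 2 of 10 were at least 2-fold higher (21.4% of 2977 genes) and 4 lower (16.0%); Prr16 and St6galnac5 are among the 4 and passed the minimum through the epigonadal side alone, so nothing is read from that count. In Ad IIa, the nuclei with endothelial RNA, Chpt1 was lower in thymus at -1.77 (-2.29 to -1.33), Slc1a3 at -1.94 (-3.10 to -1.08), Celf2 at -1.62 (-2.53 to -0.89) and Fam13a at -1.11 (-2.0 to -0.38). The other genes had 5 thymic Ad IIa UMIs or fewer and passed the minimum, where they did, mainly through the epigonadal side, so their direction is not read; the Trhde interval (-7.38 to 0.80), on 1 against 12 UMIs, included 0. The adipocyte marker sum of Ad IIa was also lower in thymus (3106 against 13178 CPM), and its part in these differences was not tested.

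The 10 other genes with a profile most like the mean of these were taken from 2160 genes with at least 50 UMIs in each library. Pearson's r was taken over 10 label means, centred within library, and the points share 2 libraries. The closest were Arhgap24 (r = 0.993), which encodes a GTPase-activating protein, Thrb (0.989), a thyroid hormone receptor, and Pde3b (0.985), the phosphodiesterase through which insulin lowers cyclic AMP. The transcript 4933406I18Rik (0.984), Tbc1d4 (0.982), a Rab GTPase-activating protein of insulin-driven glucose uptake, the transcription factor gene Sox5 (0.977), the growth hormone receptor gene Ghr (0.975), Rgs7 (0.975), Zeb2 (0.969) and the cation exchanger gene Slc24a3 (0.968) followed. Arhgap24 was at 1591 and 1428 CPM in thymic and epigonadal Ad Ia, 732 and 815 in Ad Ib, and 69.7 CPM or less in every Ad II label. Ghr stood at 14932 and 18127 CPM in Ad Ia. Within the 10, each gene's r with the mean of the other 9 ran from 0.693 for Chpt1 and 0.868 for St6galnac5 to 0.988 for Celf2.

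Fixed lists of 99 related genes were read the same way, Ad Ia against the remaining labels. Of the thyrotropin receptor and thyroid hormone list, 7 of 9 genes with 10 UMIs were at least 2-fold higher in thymic Ad Ia and 7 of 12 in epigonadal Ad Ia, with 0 and 3 lower. Over all genes with 10 UMIs 25.0% and 22.4% were higher and 26.2% and 23.7% lower, and these shares are the background of every list below. The 5 that were higher in both, named after their values were seen, were Adcy6, Prkar2b, Pde3b, Pde4d and Thrb, which make, bind or degrade cyclic AMP or bind thyroid hormone. Adcy6 rested on 2 thymic Ad Ia UMIs, with an interval (-1.08 to 4.52) that included 0. The 3 that were lower in epigonadal Ad Ia were Gnas, Prkaca, a catalytic subunit of protein kinase A, and Thrsp, a lipogenic gene that thyroid hormone induces. Prkaca, at -1.77 (-5.15 to -0.20), rested on 2 Ad Ia UMIs against 119 in the other labels, so its direction is not read. Thrsp stood at -1.11 (-1.55 to -0.74) and was higher in thymic Ad Ia at 2.57 (1.76 to 3.27). Thrb was at 4.81 and 3.80 on the log2 scale and Slc16a10, a thyroid hormone and aromatic amino acid transporter, at 4.49 and 4.60, the first from 5 against 4 UMIs, under the minimum. Gnas, encoding the stimulatory G protein subunit, stood at 0.26 (-0.51 to 0.88) in thymus and -1.0 (-1.52 to -0.56) in epigonadal fat, and Thra at 0.09 and 0.77. TMM factors moved every gene of this comparison by -0.57 in thymus and -0.42 in epigonadal fat, which turned the thymic values of Gnas (-0.31) and Thra (-0.48) below 0 and is more than the 0.32 of epigonadal Chpt1 given above.

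Among genes near Slc1a3 in function, Slc1a5, the neutral amino acid exchanger that carries glutamine, was higher in Ad Ia at 5.94 (5.09 to 6.95) and 3.08 (2.79 to 3.37). The glutamate transporter gene Slc1a1 had 0 UMIs in thymic Ad Ia against 37 in the other labels, too few to place it, and stood at -1.05 (-4.43 to 0.55) in epigonadal fat, an interval that includes 0. In that list 2 of 5 genes were higher in thymus and 1 of 5 in epigonadal fat. Lower were 2 of 5 in each library, Slc1a1 among them with the limits just given. Beside Acss3, 4 of 6 and 2 of 10 short-chain acyl-CoA genes were higher and 0 and 2 (Pccb and Mcee) lower, with Acsm3 at 4.54 and 2.17. Beside Chpt1, 0 of 8 and 4 of 11 phospholipid genes were higher and 1 (Slc44a2) and 1 (Chkb) lower, with the choline kinase gene Chka at 2.54 (1.46 to 3.48) in epigonadal fat.

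Of the dystrophin complex list, 2 of 8 and 6 of 12 genes were higher in Ad Ia, the thymic share being that of all genes, and 1 (Dtnb) and 1 (Sgcb) lower. The syntrophin gene Sntb1 was at 4.75 and 3.26, and Sntb2 at -0.88 and -0.97 with intervals that included 0. In the sialyltransferase list 0 of 7 and 1 of 9 were higher and 5 of 7 and 3 of 9 lower, but all 5 thymic ones (St6galnac2, St6galnac3, St3gal1, St3gal2 and Ugcg) had 0 Ad Ia UMIs and passed the minimum through the other labels, so nothing is read from their count. The 3 epigonadal ones were St6galnac2, St6galnac3 and St6galnac6, of which only St6galnac3 had an interval off 0. St6galnac3, the sister enzyme of St6galnac5, ran the other way in epigonadal fat, with 7 Ad Ia UMIs against 839 in the other labels (-3.0, -4.41 to -2.05). In thymus it had 0 against 495 UMIs, under the limit just given. The CELF and muscleblind list had 0 of 4 and 2 of 5 higher and 1 (Mbnl3) and 0 lower, with Celf1 at 0.51 (-0.48 to 1.27) in thymus, -0.05 under the TMM shift given above, and 1.26 in epigonadal fat. The Fam13 and GTPase-activating protein list had 1 of 6 and 2 of 6 higher, Arhgap24 in both, and 1 (Fam13c) and 0 lower, and the cell size list had 1 of 7 (Mtor) and 0 of 7 higher and none lower in either library. Thymic Mtor rested on 3 Ad Ia UMIs, at 1.07 (-1.48 to 2.56, which includes 0), and stood at 0.51 with TMM factors. Slc44a2, Dtnb, Mbnl3 and Fam13c in thymus and Chkb and Sgcb in epigonadal fat also had 0 Ad Ia UMIs, so their lower calls carry the same limit.

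**Figure D4:**
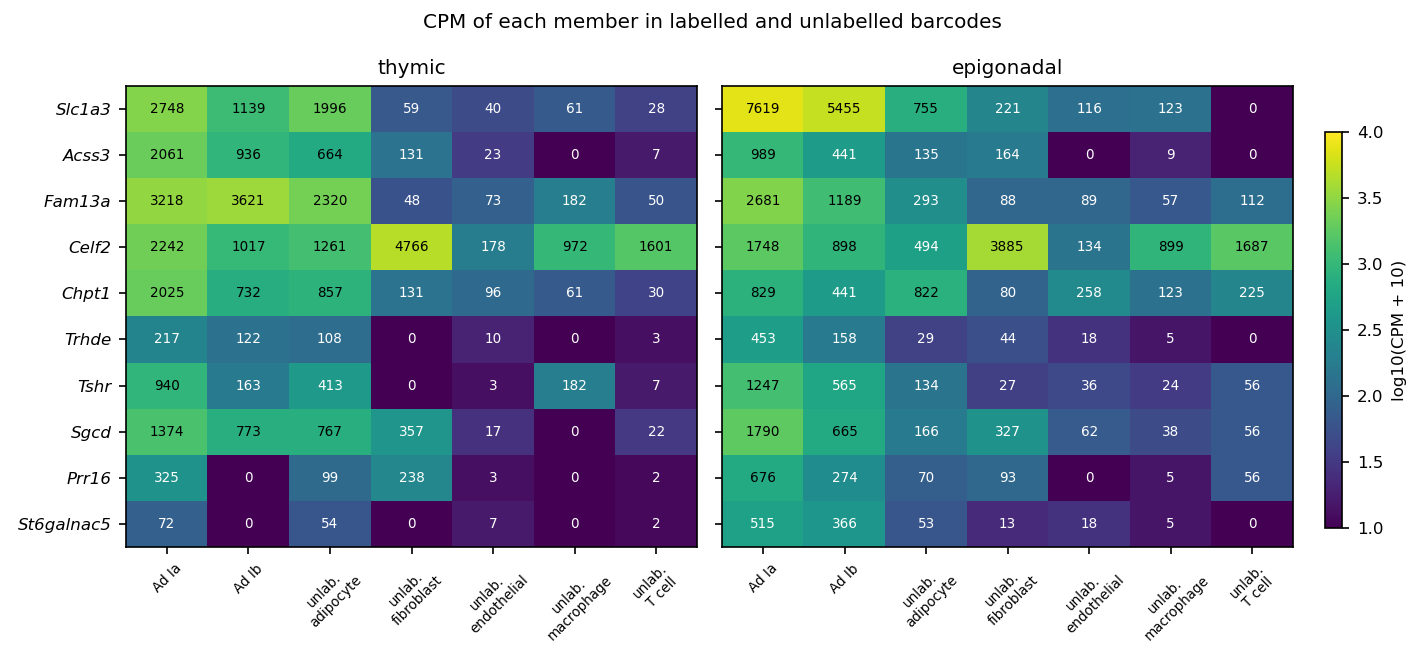
CPM of each gene (rows; number in each cell, colour as log10 of CPM + 10) in Ad Ia, Ad Ib and in unlabelled barcodes grouped by their markers (columns), for the thymic (left) and epigonadal (right) library. Most genes are low outside adipocyte-marker barcodes, and Celf2 is highest in fibroblast-marker barcodes, at 4766 and 3885 CPM.

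Unlabelled barcodes held UMIs of these genes as well; in droplet libraries free RNA adds UMIs to barcodes of any cell type, and its part was not tested. A barcode was assigned to a class when at least 3 markers of 1 class were seen, and more than of any other class. Thymus had 568 unlabelled barcodes of the adipocyte class (median 254.5 UMIs) and epigonadal fat 2300 (median 661 UMIs). In the thymic class Fam13a was at 2320 CPM, Slc1a3 at 1996, Celf2 at 1261, Chpt1 at 857, Sgcd at 767, Acss3 at 664 and Tshr at 413, with Trhde, Prr16 and St6galnac5 between 53.8 and 108 CPM. The epigonadal class had Chpt1 at 822 and Slc1a3 at 755 CPM and the others between 29.4 and 494 CPM. After thinning, 37 of 90 such thymic barcodes (41.1%, 30.8 to 52.0%) and 201 of 1780 epigonadal ones (11.3%, 9.86 to 12.9%) held 3 or more of the 10 genes, with 478 and 520 left out as too shallow. Unthinned, the shares were 31.0% and 20.9%.

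Celf2 was the least confined to adipocyte nuclei. It reached 4766 CPM in 56 thymic and 3885 CPM in 151 epigonadal fibroblast-class barcodes, with a UMI in 82.1% and 89.4% of them, above its Ad Ia levels in each library. In T cell-class barcodes it stood at 1601 CPM (618 barcodes) and 1687 CPM (15 barcodes), and in macrophage-class barcodes at 972 and 899 CPM, while endothelial-class barcodes held 178 and 134 CPM. Sgcd (357 and 327 CPM) and Prr16 (238 and 92.8 CPM) were also above their levels over all unlabelled barcodes (156 and 146 CPM, 19.3 and 55.9 CPM) in the fibroblast class, under those of Ad Ia. Acss3 stood at 131 and 164 CPM there, against 144 and 112 CPM over all unlabelled barcodes, so its thymic fibroblast level was not above that. Tshr and St6galnac5 held 26.5 CPM or less there. Unthinned, a UMI of Acss3 was present in 17.9% and 16.6% of fibroblast-class barcodes (median 1048 and 1072 UMIs), against 0.647% of the thymic T cell class (median 790.5 UMIs) and 1.21% of the epigonadal macrophage class (median 903 UMIs). After thinning to 500 UMIs the fibroblast shares were 1 of 47 (2.13%, 0.054 to 11.3%) and 6 of 145 (4.14%, 1.53 to 8.79%), against 1 of 426 (0.235%, 0.0059 to 1.30%) and 1 of 153 (0.654%, 0.017 to 3.59%), with intervals that overlapped in thymus and in epigonadal fat.

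**Figure D5:**
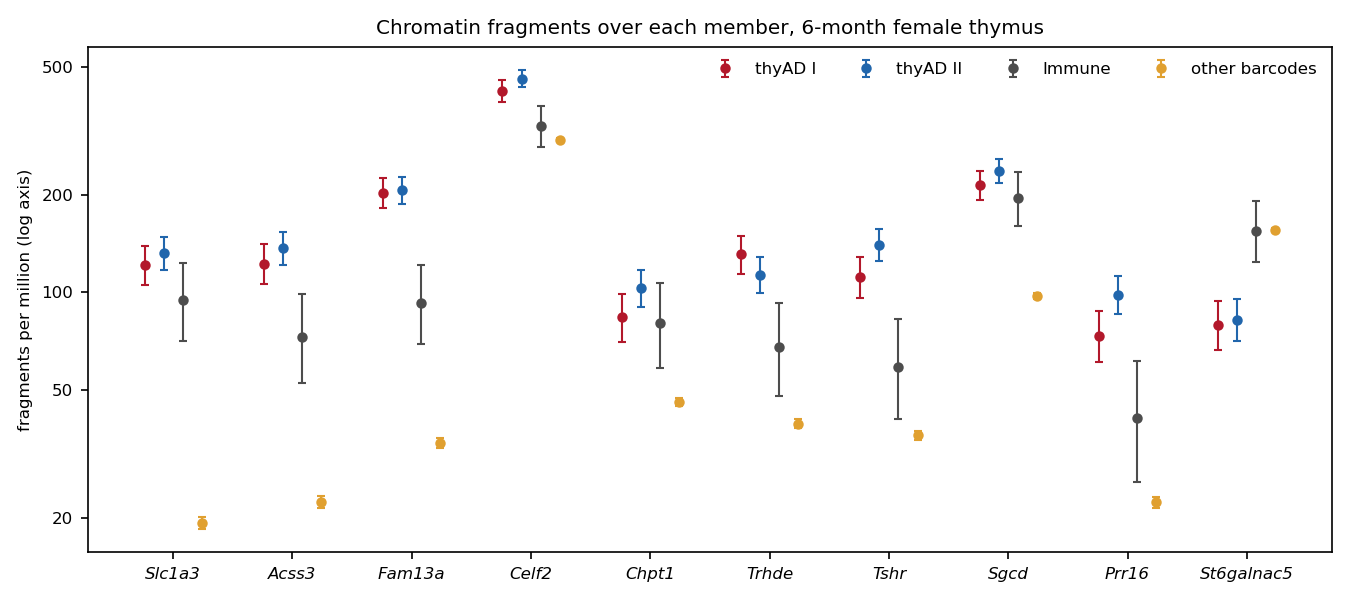
Chromatin fragments in FPM (per 1000000 fragments of the label, log axis) over each gene body plus 2 kb on either side, in nuclei labelled thyAD I, thyAD II and Immune and in all other barcodes of the 6-month female library; bars are exact Poisson 95% intervals. The thyAD I and thyAD II points lie close together for each gene, and 9 of the 10 genes are above the other barcodes, St6galnac5 being below them.

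Open chromatin over the same genes was read in the female thymic multiome as fragments over the gene body plus 2 kb on either side, scaled to 1000000 fragments of each label (FPM). The authors' labels there are thyAD I (146 nuclei, 1646902 fragments), thyAD II (140 nuclei, 2189613 fragments) and Immune (31 nuclei, 561387 fragments). These labels come from other mice, of another sex and age, and are not the Ad I and Ad II labels of the RNA libraries. Adipocyte marker genes summed to 1797 FPM in thyAD I, 1604 in thyAD II and 1096 in Immune, and T cell markers to 74.1, 56.2 and 374. Endothelial markers stood at 147, 186 and 187 FPM and B cell markers at 602, 619 and 401, so these gene-body sums separated the labels only in part.

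None of the 10 genes was called higher in thyAD I than in thyAD II. A gene was called here where its log2 ratio passed 0.32 either way. Of the 10, 0 were higher in thyAD I (14.0% of 17897 genes) and 2 were lower (16.7%): Prr16 at 73.5 against 98.2 FPM (log2 -0.42, -0.75 to -0.09) and Tshr at 111.7 against 140.7 (-0.33, -0.60 to -0.06). Trhde had the highest ratio, with 131 against 113 FPM (0.21, -0.06 to 0.48), but stood at -0.75 when fragments were taken within 1 kb of both gene ends. Slc1a3 was at 121 and 132, Acss3 at 123 and 137, Fam13a at 203 and 207, Celf2 at 420 and 459, Chpt1 at 83.8 and 103.2, Sgcd at 214 and 237 and St6galnac5 at 79.5 and 82.2, all with intervals that included 0. The median log2 ratio was -0.14 over the 10 genes and -0.01 over all genes.

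Within thyAD I, the authors' joint clusters 1 (85 nuclei) and 3 (61 nuclei) showed calls at shares near or under those of all genes. By the log2 threshold of 0.32, 1 gene was higher in cluster 1 (17.5% of 11116 genes) and 2 were lower (25.3%). Celf2 was higher in cluster 1, with 462 against 331 FPM (0.48, 0.23 to 0.74), and Trhde was lower there, with 109 against 178 (-0.70, -1.10 to -0.30), as was Chpt1 at -0.39 (-0.89 to 0.15), an interval that included 0. Trhde in cluster 3 also exceeded thyAD II, at 0.66 (0.29 to 1.0), 1 of 10 genes higher (22.8%), and Celf2 and Tshr were lower (19.8% of 15558 genes), at -0.47 (-0.71 to -0.24) and -0.33 (-0.77 to 0.07, which includes 0). In cluster 1 against thyAD II 0 genes were higher (15.1% of 16996 genes), with Trhde at -0.05 (-0.37 to 0.27), and 3 were lower (18.9%), Prr16 at -0.50 (-0.89 to -0.12), Chpt1 at -0.43 (-0.81 to -0.07) and Tshr at -0.32 (-0.64 to -0.02). Trhde also differed within thyAD II, where cluster 0 exceeded cluster 4 by 0.43 (0.05 to 0.84). It was 1 of 3 genes called higher there, with Tshr at 0.34 and St6galnac5 at 0.35, whose intervals included 0, and 0 were lower. Of 2302 genes over 100 kb 10.6% were higher, but Slc1a3, Fam13a and Chpt1 are shorter than that, so the sets are unlike. The share of all genes is not given, so nothing is read from that count.

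Against the Immune nuclei 7 of 10 genes were higher by that threshold in thyAD I (30.4% of 13754 genes) and 1 was lower (22.9%). Fam13a was at 203 against 92.6 FPM (1.12, 0.71 to 1.59) and Trhde at 131 against 67.7 (0.94, 0.45 to 1.49). St6galnac5 was at 79.5 against 155 (-0.96, -1.36 to -0.55), the only lower gene. Slc1a3, counted as higher at 0.35 (-0.08 to 0.83), had an interval that included 0, as did Chpt1 at 0.05 and Sgcd at 0.12.

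The labelled nuclei held 4.35% of the 101060606 fragments, and the other barcodes served as a library-wide level. Of the 10 genes, 7 were at least 2-fold higher in thyAD I than there (16.4% of 41410 genes), a comparison added after the data were seen. Slc1a3 was 6.29-fold, Fam13a 5.94-fold, Acss3 5.47-fold, Trhde 3.35-fold, Prr16 3.29-fold, Tshr 3.10-fold and Sgcd 2.21-fold higher. Chpt1 was at 1.83-fold, Celf2 at 1.42-fold and St6galnac5 at 0.51-fold. In thyAD II 8 of 10 genes were at least 2-fold above the other barcodes (16.6% of 41488 genes), with Slc1a3 at 6.86-fold, Acss3 at 6.11-fold, Fam13a at 6.04-fold, Prr16 at 4.39-fold, Tshr at 3.90-fold, Trhde at 2.89-fold, Sgcd at 2.44-fold and Chpt1 at 2.26-fold. In the Immune nuclei 4 of 10 were (18.0% of 41342 genes), namely Slc1a3 at 4.92-fold, Acss3 at 3.29-fold, Fam13a at 2.73-fold and Sgcd at 2.02-fold.

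At the gene starts, fragments within 1 kb on either side showed where the open chromatin lay. The Chpt1 start, with its GC-box window printed above, held 81 thyAD I, 118 thyAD II and 28 Immune fragments (49.2, 53.9 and 49.9 FPM), level across the 3 labels. Celf2 has 5 listed starts, and only that at 6872035, the CpG-rich one printed above, held many adipocyte fragments, with 41 in thyAD I and 39 in thyAD II, while the other 4 held between 1 and 16. At the start at 6721662 there were 7, 11 and 8 fragments, and 1837 in the other barcodes. The other barcodes held more, 2046, at the start at 6872035. The Fam13a start held 49 and 60 fragments (29.8 and 27.4 FPM) and 9 in Immune nuclei, and the Slc1a3 start 26 and 38 (15.8 and 17.4 FPM) and 5 in Immune nuclei. Trhde had 18 and 40 (log2 -0.72, -1.63 to 0.09) and Sgcd 15 and 21.

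Away from the starts, a 1 kb bin of Fam13a at chr6:58951536-58952535, 72.5 kb inside the gene from its start, held 32 thyAD I, 50 thyAD II and 6 Immune fragments, beside 29, 34 and 5 in the 1 kb just before the start. For St6galnac5, the bin with most fragments over all barcodes, chr3:152911885-152912884, 69826 bases from the nearest gene end, had 1672 in all but 5, 1 and 4 in the 3 labels. Its highest adipocyte bin, chr3:152979885-152980884, 1826 bases from a gene end, held 18 and 22 fragments in the thyAD labels and 2 in Immune nuclei.

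These genes are long. On GRCm38.p6 their RefSeq bodies run from Chpt1 (chromosome 10, 88469513 to 88503970, 34.5 kb) and Slc1a3 (chromosome 15, 8634124 to 8710807, 76.7 kb) through Fam13a (chromosome 6, 58933536 to 59024502, 91.0 kb), Tshr (chromosome 12, 91400993 to 91540509, 139.5 kb) and St6galnac5 (chromosome 3, 152819885 to 152982210, 162.3 kb) to Celf2 (chromosome 2, 6539694 to 7396341, 857 kb) and Sgcd (chromosome 11, 46971077 to 47989451, 1018 kb). Prr16 (chromosome 18, 51117898 to 51304641, 187 kb), Acss3 (chromosome 10, 106933514 to 107123761, 190 kb) and Trhde (chromosome 10, 114398820 to 114802302, 403 kb) lie between. Their median was 174.5 kb, against 26.4 kb for 11040 genes with at least 10 UMIs in labelled nuclei. In epigonadal fat 40.0% of genes over 100 kb were at least 2-fold higher in Ad Ia than in the remaining labels, against 14.1% of genes under 20 kb, while in thymus the shares were 23.4% and 24.2%. The part of length in the epigonadal levels was not tested.

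Of the 10, 3 overlap another counted gene. Chpt1 overlaps Sycp3 (0 and 1 UMIs in thymic and epigonadal Ad Ia), Trhde overlaps Gm15723 (2 and 12) and St6galnac5 overlaps Pigk (0 and 8), so reads that could belong to either are uncertain, most of all for the 6 thymic Trhde UMIs.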

How the data were processed

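Nuclei of buoyant adipocyte fractions were profiled on the 10x Genomics platform, per the labels' protocols. The deposited matrices hold whole UMI counts per gene and barcode, from cellranger 7.2.0 per the file headers; the submitters' processing notes name Cell Ranger ARC 2.0.2, Seurat 5.1.0 and mm10. The authors' deposited tables give a label per nucleus and its percent of mitochondrial RNA, and class all 1929 labelled RNA nuclei as singlets (scDblFinder). Each line of the deposited fragment list was taken as 1 fragment. The chromatin label table ends in an incomplete row, so 317 nuclei were used.

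Raw UMIs were added up for each label of each library and divided by the nuclear-encoded total (24582 to 1237126 UMIs), with exact Poisson intervals for levels, Clopper-Pearson intervals for shares and the exact binomial interval of the split for ratios, all at 95%. Log2 ratios had 0.5 UMI or fragment added to each sum. Genes needed 10 UMIs or 50 fragments over both sides. A fold of 2 was called for RNA and a log2 ratio of 0.32 for chromatin. A count of 0 allows up to 3 counts. For shares of nuclei, each was thinned to 500 UMIs at random. Groups of 1 library allow no test. Ratios and intervals were tested on simulated counts with Poisson error only. That test cannot show whether the intervals hold where nuclei of a label differ.

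All 10 genes are named, with the 10 most similar genes and, per related list, up to 2 genes at each end of the Ad Ia ratio. A gene that this rule names is not reported here. The genes and lists were chosen with earlier results of these data known. Alternatives were edgeR 4.0.16 TMM and median-of-ratios factors, equal weight per nucleus, other minimums and additions, thinning, subtraction of the unlabelled profile and leaving out the nucleus with most UMIs of these genes. RNA counts of the female multiome were not used here. Python 3.11.15, numpy 2.4.6, scipy 1.17.1 and pandas 2.3.3 were used.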

Additional observations from a re-analysis of the deposited data

Results flagged for a closer look

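Depot ratios of 3 of the 10 genes were flagged where signs were opposite in 2 labels with both counting intervals off 0. This flagged 9 pairs of labels, most of them resting on few thymic UMIs, as given below. For 2 further pairs the ratio between labels turned between libraries, of 200 pairs looked at. None of these differences was tested, since each group was 1 library, and marker content differed between libraries within Ad IIa (adipocyte marker sums of 3106 and 13178 CPM in thymus and epigonadal fat) and Ad IIc (3059 and 54838 CPM), so ratios within these labels set unlike nuclei against each other; the part of that in these values was not tested. Acss3 had a thymic over epigonadal log2 ratio of 1.067 in Ad Ia and 1.104 in Ad Ib, but -1.257 in Ad IIa and at most -1.413 at a floor of 3 UMIs in Ad IIc, where thymus had 0 UMIs (upper limit with counting error -1.08). Fam13a had 1.609 in Ad Ib, against -1.107 in Ad IIa and -2.331 in Ad IIc. Chpt1 had 1.296 in Ad Ia, against -1.774 in Ad IIa, at most -0.619 at that floor in Ad IIb with 0 thymic UMIs (upper limit -0.21), and -3.35 in Ad IIc. The thymic side of several of these values held few UMIs (Acss3 5 in Ad IIa and 0 in Ad IIc, Fam13a 3 in Ad IIc, Chpt1 0 in Ad IIb and 8 in Ad IIc), and such genes passed the minimum through the epigonadal side, so no direction is read from them. Outside those values, the depot ratio turned only for Fam13a between Ad Ib and Ad IIa and for Chpt1 between Ad Ia and Ad IIa. The step from Ad IIc also turned for Chpt1: Ad Ia over Ad IIc was 3.705 in thymus and -0.941 in epigonadal fat, and Ad Ib over Ad IIc was 2.264 and -1.84.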

How the results depend on the processing

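The number of genes at least 2-fold higher in thymic Ad Ia, 2 as reported, was 0 with TMM factors, 0 with equal weight per nucleus, 1 with median-of-ratios factors and 1 after thinning to 500 UMIs. The number at least 2-fold higher in epigonadal Ad Ia, 2 as reported, was 4 with TMM factors, with median-of-ratios factors, in nuclei of at least 1000 UMIs and after subtraction of the unlabelled profile, Slc1a3, Trhde, Prr16 and St6galnac5 in each. TMM factors moved every gene by -0.47 and median-of-ratios factors by -0.15. Why the counts moved in the other alternatives was not tested. The median log2 depot ratio stayed below 0 in every alternative run, from -0.85 with TMM factors, where all genes moved by -0.47, to -0.15 without the nucleus with most UMIs of these genes. No counting interval of that median was computed, so its direction is not read. The medians of the single genes' lower and upper limits were -0.99 and 0.16. Under the alternatives that can move a ratio, which leaves out those on the minimum, 103 of 110 single-gene RNA ratios lay within the reported interval, and of 36 chromatin ratios 33 did; the other 3 came from taking 1 kb around both gene ends, run for 6 genes, with Trhde at -0.75, Tshr at -0.79 and Fam13a at 0.26. In chromatin, 0 genes were higher in thyAD I under every alternative run. Scaling without Malat1, Neat1 and Meg3, nuclei of at least 500 UMIs and leaving out shared barcodes were chosen after seeing the data. Ad Ia stayed the highest label for 8 to 10 genes in thymus and 9 in epigonadal fat. No paired analysis was possible because each group was 1 library. Depth limits the thymic values of Trhde, Prr16 and St6galnac5 most, at 6, 9 and 2 UMIs in Ad Ia.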
